A study of Mus musculus with 6 samples.

Results

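Interferon-stimulated genes are the genes a cell switches on when it senses a virus or receives an interferon signal. A fixed list of 34 such mouse genes was followed here through 6 RNA-sequencing libraries of isolated pancreatic islets, because the islets of 1 group had been given a lentivirus. The list was matched by gene identifier to the 34745 genes of the deposited table. All 34 were found, and 26 of them passed the filter on low values, which asked for at least 1 FPKM (fragments per kilobase of transcript, scaled to the library's total, a level corrected for gene length) in at least 2 libraries.

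The study compared islets of C57BL/6 mice aged 8 weeks in 3 groups of 2 libraries. WT islets were wild type. βRapKO islets (KO below) lack Raptor (gene Rptor), a subunit of the growth-regulating kinase complex mTORC1, in beta cells, as the line's name says, and KO+DNMT3A islets carried the same deletion and received the DNA methyltransferase Dnmt3a by lentivirus. The Cre driver, the promoter in the vector and the number of animals behind each library were not given in the sources used here. In the deposited table the columns of WT and of KO carry GFP in their names. No label says what this stands for, so whether those islets also received a virus is not known, and a difference between KO+DNMT3A and the other groups cannot be assigned to the vector or to Dnmt3a. The sources do not tie the libraries within a group to different animals, and p-values then measure only the spread between these libraries. With 2 libraries against 2, an exact permutation test of a single gene cannot go below a two-sided p of 0.333, so the tests given are those of a limma fit across all genes.

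The libraries differed among themselves in ways the groups do not explain. Inferred depths ran from 244763 fragments in WT replicate 1 to 1919408 in KO+DNMT3A replicate 1, so 1 fragment on a transcript of 2 kb was worth 0.260 to 2.04 FPKM. The insulin genes Ins1 and Ins2 made up 0.170% of the summed FPKM in WT replicate 1 and 0.109% in KO replicate 2, against 16.5% to 30.5% in the other 4 libraries, so the defining beta cell transcripts were nearly missing from 1 library of each of those groups. In the same 2 libraries mitochondrially encoded genes took 44.8% and 50.9% of the sum, against 16.5% to 26.5% in the others. Rptor read 0.80 and 1.06 FPKM in WT, 0.378 and 1.51 in KO, and 0.714 and 1.93 in KO+DNMT3A, an overlap that goes against the KO label as far as whole-gene FPKM can show it. Dnmt3a read 2.94 and 4.43 FPKM in WT, 3.19 and 2.50 in KO, and 3.62 and 3.80 in KO+DNMT3A, without a clear excess of the delivered gene. The libraries are therefore called by their labels throughout, and every direction below is one between libraries so labelled. In whole islets, fewer cells of a type and less RNA per cell cannot be told apart.

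Type I interferons bind a receptor made of Ifnar1 and Ifnar2, whose kinases Jak1 and Tyk2 phosphorylate Stat2. With Irf9 it is part of ISGF3, the complex that binds the interferon-stimulated response element (ISRE) in promoters such as those of Ifit1, Isg15 and Bst2. Interferon gamma acts on another element, the gamma-activated sequence (GAS), found at genes such as Irf1. In islets this response is best known from type 1 diabetes and from infection of beta cells by enteroviruses.

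Promoter windows of RefSeq (GRCm38.p6, 250 bases before to 50 after each annotated start) were at hand for 26 of the 34 members. The 4 stretches below are shown because they hold letters of the interferon response element, in Bst2, Stat2 and Ifit1, for which fits are given below, and in Isg15, a widely used marker of the response; each is written 5′ to 3′ along the strand of its gene, with matches to the core of the ISRE in capitals. Ifit1 lies at chr19:34640740-34640853 on the plus strand, Isg15 at chr4:156200836-156200936 on the minus strand, Bst2 at chr8:71537548-71537642 on the minus strand and Stat2 at chr10:128270248-128270325 on the plus strand.
Ifit1: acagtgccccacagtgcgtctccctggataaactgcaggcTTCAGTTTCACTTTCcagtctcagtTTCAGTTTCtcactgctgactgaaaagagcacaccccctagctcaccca
Isg15: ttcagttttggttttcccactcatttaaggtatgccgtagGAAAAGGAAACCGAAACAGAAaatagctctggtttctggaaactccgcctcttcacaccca
Bst2: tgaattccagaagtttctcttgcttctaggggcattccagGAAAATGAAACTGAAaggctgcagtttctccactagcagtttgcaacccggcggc
Stat2: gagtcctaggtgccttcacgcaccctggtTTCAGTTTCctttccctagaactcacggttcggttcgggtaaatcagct
The Ifit1 stretch held 3 matches, all on the opposite strand, the Isg15 stretch 3 overlapping matches, the Bst2 stretch 2 and the Stat2 stretch 1.

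The ISRE core was searched as GAAANNGAA on both strands, with overlapping matches allowed. It occurred in the windows of 17 of the 26 members (65.4%), against 9.76% of the 27025 genes with a window and 19 of 33 (57.6%) in a second list of interferon-stimulated genes. The GAS letters TTCNNNGAA, which read the same on both strands, occurred in 8 of 26 members (30.8%), against 9.55% of genes and 7 of 33 (21.2%) in the second list. Both motifs were present in 5 members, and 6 members had neither: Irf7, Irf9, Oasl1, Oasl2, Ifitm1 and Xaf1. Of the 29 ISRE matches, 20 began within 150 bases before the start, and 9 members held 2 or more. These are matches of letters only, and a window without them says nothing of sites elsewhere.

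**Figure D1:**
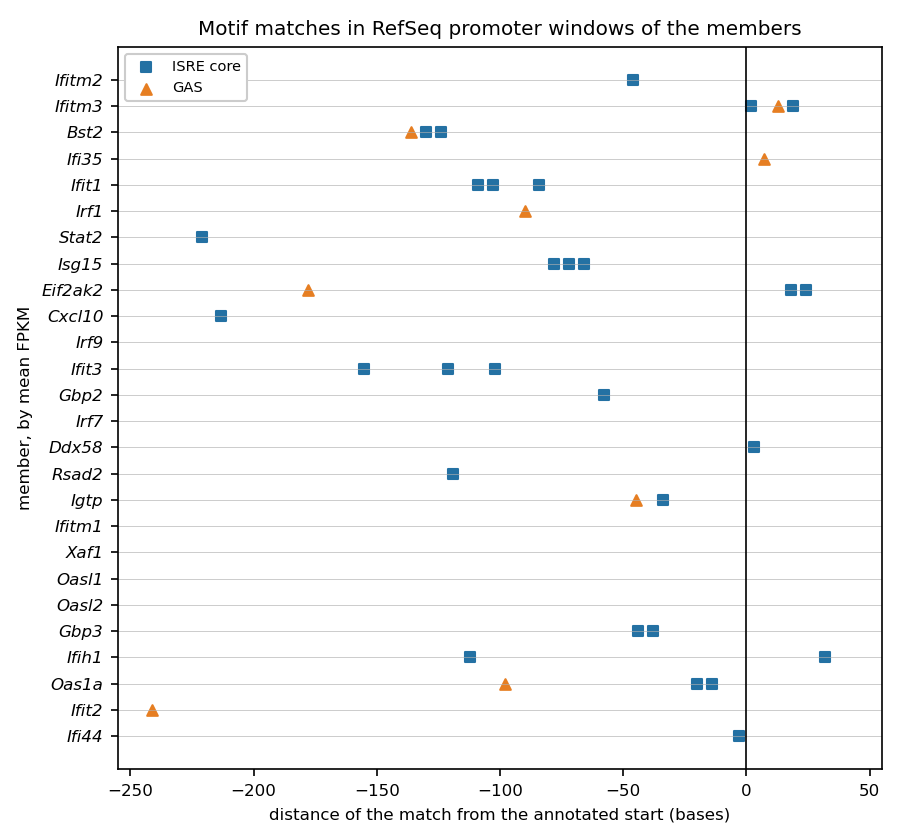
Positions of ISRE core matches (squares) and GAS matches (triangles) in the RefSeq promoter windows of the 26 members with a window, as the distance in bases of each match's first base from the annotated start. Most squares lie on the left of the start, with a median at -66, and 6 rows are empty.

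The signal that would start the response was not seen in the table. All 21 interferon ligand genes of the table, among them Ifnb1, Ifna2, Ifna4, Ifng and Ifnl2, were listed at 0 in every library. At these depths a short transcript could hold a few fragments unseen. The receptor genes were present. Ifnar1, a chain of the type I receptor, read 5.47 and 3.91 FPKM in WT, 2.31 and 2.51 in KO, and 3.59 and 2.67 in KO+DNMT3A. Both WT values were above both KO values. Ifnlr1, the specific chain of the lambda receptor, reached at most 0.498 FPKM.

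Levels within the gene set were uneven. Of the 34 members, 5 averaged 10 FPKM or more over the 6 libraries, 8 lay between 2 and 10, and 21 averaged below 2, of which 12 were below 1. The most abundant 4, Ifitm2, Ifitm3, Ifi27 and Bst2, supplied 60.1% to 83.7% of the summed FPKM of the set in each library. That sum was 272.7 and 257.8 FPKM in WT, 272.8 and 174.4 in KO, and 270.7 and 209.2 in KO+DNMT3A, so it overlapped between all groups and was lowest in the insulin-poor KO replicate 2. Between 17 (WT replicate 1) and 32 (KO+DNMT3A replicate 1) members were above 0. The zeros in WT replicate 1 carry little weight: of its 17 members at 0, only Stat2, Ifih1 and Parp14 exceeded, in some other library, the FPKM that 3 fragments would have given in WT replicate 1.

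**Figure D2:**
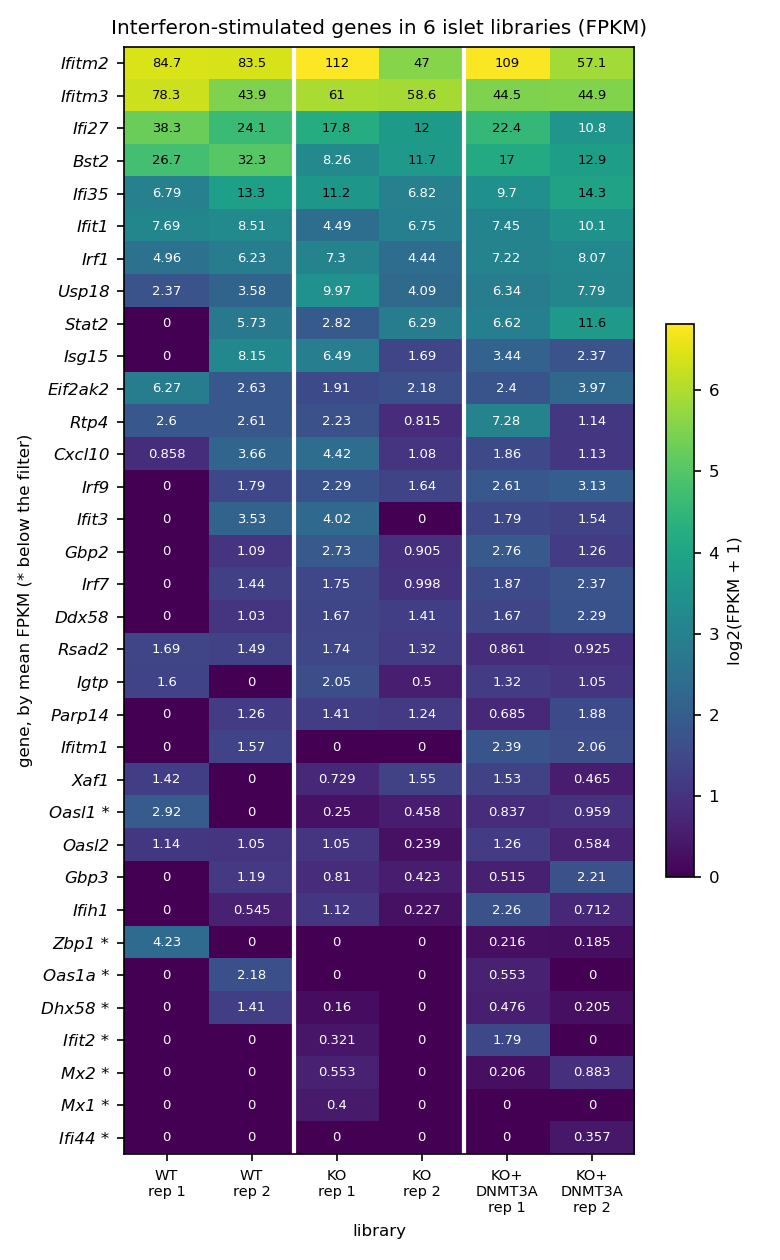
FPKM of the 34 members in each library, printed in the cells and coloured by log2(FPKM + 1), with members ordered by their mean and an asterisk on the 8 below the filter. The top 4 rows hold most of the signal, and the first column has the most zeros, 17 of 34.

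Among the transcription factors, Stat2 (the ISGF3 subunit used only by type I and type III interferons) read 0 and 5.73 FPKM in WT, 2.82 and 6.29 in KO, and 6.62 and 11.6 in KO+DNMT3A. Both KO+DNMT3A libraries were above the other 4. Irf9, the DNA-binding subunit of ISGF3, read 0 and 1.79 in WT, 2.29 and 1.64 in KO, and 2.61 and 3.13 in KO+DNMT3A, again with both KO+DNMT3A libraries on top. Irf7, which amplifies interferon production, read 0 and 1.44 in WT, 1.75 and 0.998 in KO, and 1.87 and 2.37 in KO+DNMT3A. Each of the 3 genes was thus highest in the KO+DNMT3A libraries, although the lower of these exceeded the next library by little, 1.87 against 1.75 FPKM for Irf7. Irf1, a factor of the interferon gamma response, read 4.96 and 6.23 in WT, 7.30 and 4.44 in KO, and 7.22 and 8.07 in KO+DNMT3A, so its KO libraries spanned the WT ones. Exons of Irf9 overlap Rnf31 on the same strand and those of Irf7 overlap Phrf1 on the opposite strand, so part of either value may be the neighbour's. Rnf31 read 2.91 to 7.16 FPKM and Phrf1 1.88 to 3.39 over the 6 libraries, each above its partner in every library.

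The sensors of foreign nucleic acid were low. Ddx58 (RIG-I, a receptor for viral RNA) read 0 and 1.03 FPKM in WT, 1.67 and 1.41 in KO, and 1.67 and 2.29 in KO+DNMT3A, so both WT values were the lowest. Ifih1 (MDA5, a receptor for long double-stranded RNA) read 0 and 0.545 in WT, 1.12 and 0.227 in KO, and 2.26 and 0.712 in KO+DNMT3A. Dhx58, the third helicase of that family, reached at most 1.41, in WT replicate 2. Zbp1, a sensor of Z-form nucleic acid, read 4.23 in WT replicate 1, was at 0 in 3 libraries and stayed at or below 0.216 in the other two. Eif2ak2, the kinase PKR that halts translation on double-stranded RNA, read 6.27 and 2.63 in WT, 1.91 and 2.18 in KO, and 2.40 and 3.97 in KO+DNMT3A. Its KO values were the lowest, and WT and KO+DNMT3A overlapped.

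Of the antiviral effectors, Ifitm2 and Ifitm3, which block entry of enveloped viruses, were the highest members. Ifitm2 read 84.7 and 83.5 FPKM in WT, 111.8 and 47.0 in KO, and 108.8 and 57.1 in KO+DNMT3A, with the WT pair inside the range of both other groups. Ifitm3 read 78.3 and 43.9 in WT, 61.0 and 58.6 in KO, and 44.5 and 44.9 in KO+DNMT3A. The tight KO+DNMT3A pair lay below both KO libraries and just above WT replicate 2. Ifitm1, their neighbour in the cluster on chromosome 7, read 0 and 1.57 in WT, 0 in both KO libraries, and 2.39 and 2.06 in KO+DNMT3A. Ifitm2 shares exon bases with the model Gm45717, and the 3 genes are close relatives whose fragments the authors' assignment could have divided between them.

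Bst2 (tetherin, which holds budding virus at the cell surface; chr8:71534255-71537456 on the minus strand) read 26.7 and 32.3 FPKM in WT, 8.26 and 11.7 in KO, and 17.04 and 12.9 in KO+DNMT3A. No value of 1 group reached into another. Its inferred fragments were 5.18, 24.9, 9.33, 7.25, 25.9 and 11.4 in that order of libraries. In KO replicate 2, 3 fragments were worth 4.85 FPKM, more than its gap to KO+DNMT3A replicate 2. Ifi27, a small membrane protein and common marker of interferon exposure, read 38.3 and 24.1 in WT, 17.8 and 12.03 in KO, and 22.4 and 10.8 in KO+DNMT3A, with both WT values on top. The Ifit proteins bind viral RNA. Ifit1 (chr19:34640871-34650009 on the plus strand) read 7.69 and 8.51 in WT, 4.49 and 6.75 in KO, and 7.45 and 10.1 in KO+DNMT3A, so its KO values were the lowest. Ifit3 read 0 and 3.53 in WT, 4.02 and 0 in KO, and 1.79 and 1.54 in KO+DNMT3A, and Ifit2 exceeded 1 FPKM only in KO+DNMT3A replicate 1, at 1.79. Ifit3 has a near-identical copy, Ifit3b, listed at 0 in 4 libraries and at 1.40 or less in the others.

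Isg15, a ubiquitin-like protein attached to other proteins in the antiviral state, read 0 and 8.15 FPKM in WT, 6.49 and 1.69 in KO, and 3.44 and 2.37 in KO+DNMT3A, a spread within WT and KO that covers KO+DNMT3A. Its inferred fragments were 0, 6, 7, 1, 5 and 2 in that order of libraries. Usp18, which removes Isg15 and dampens the type I receptor, read 2.37 and 3.58 in WT, 9.97 and 4.09 in KO, and 6.34 and 7.79 in KO+DNMT3A. Both WT values were below all others, but WT replicate 1 held 1.03 inferred fragments, and 3 would have given 6.92 FPKM there. In WT replicate 2 and KO replicate 2 they were 6.17 and 5.65. Rsad2 (viperin, an inhibitor of viral replication) read 1.69 and 1.49 in WT, 1.74 and 1.32 in KO, and 0.861 and 0.925 in KO+DNMT3A, where it was lowest. The oligoadenylate synthetase family was scarce: Oasl2 read 0.239 to 1.26 FPKM, Oasl1 0 to 2.92, and Oas1a was above 0 only in WT replicate 2 (2.18) and KO+DNMT3A replicate 1 (0.553).

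The Mx GTPases and Ifi44 were almost absent. Mx1 was above 0 only in KO replicate 1, at 0.400 FPKM, and Mx2 reached at most 0.883. Most laboratory mouse strains carry defective Mx genes, and the annotation lists Mx2 as a polymorphic pseudogene. Ifi44 was above 0 only in KO+DNMT3A replicate 2, at 0.357. With Oasl1, Oas1a, Zbp1, Dhx58 and Ifit2, these are the 8 members below the filter.

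Genes known best from the interferon gamma response were low. Gbp2, a guanylate-binding protein that attacks vacuoles of intracellular pathogens, read 0 and 1.09 FPKM in WT, 2.73 and 0.905 in KO, and 2.76 and 1.26 in KO+DNMT3A. Gbp3 read 0 and 1.19, 0.810 and 0.423, and 0.515 and 2.21 in the same order. Igtp, an immunity-related GTPase, read 0 to 2.05, and it shares exon bases with its relative Irgm2 on the same strand. Cxcl10, a chemokine that draws T cells into inflamed islets, read 0.858 and 3.66 in WT, 4.42 and 1.08 in KO, and 1.86 and 1.13 in KO+DNMT3A. Its KO+DNMT3A values lay inside the range of both other groups. Among the rest, Ifi35 ranged from 6.79 to 14.3, Xaf1 from 0 to 1.55, Parp14 from 0 to 1.88 and Rtp4 from 0.815 to 7.28.

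**Figure D3:**
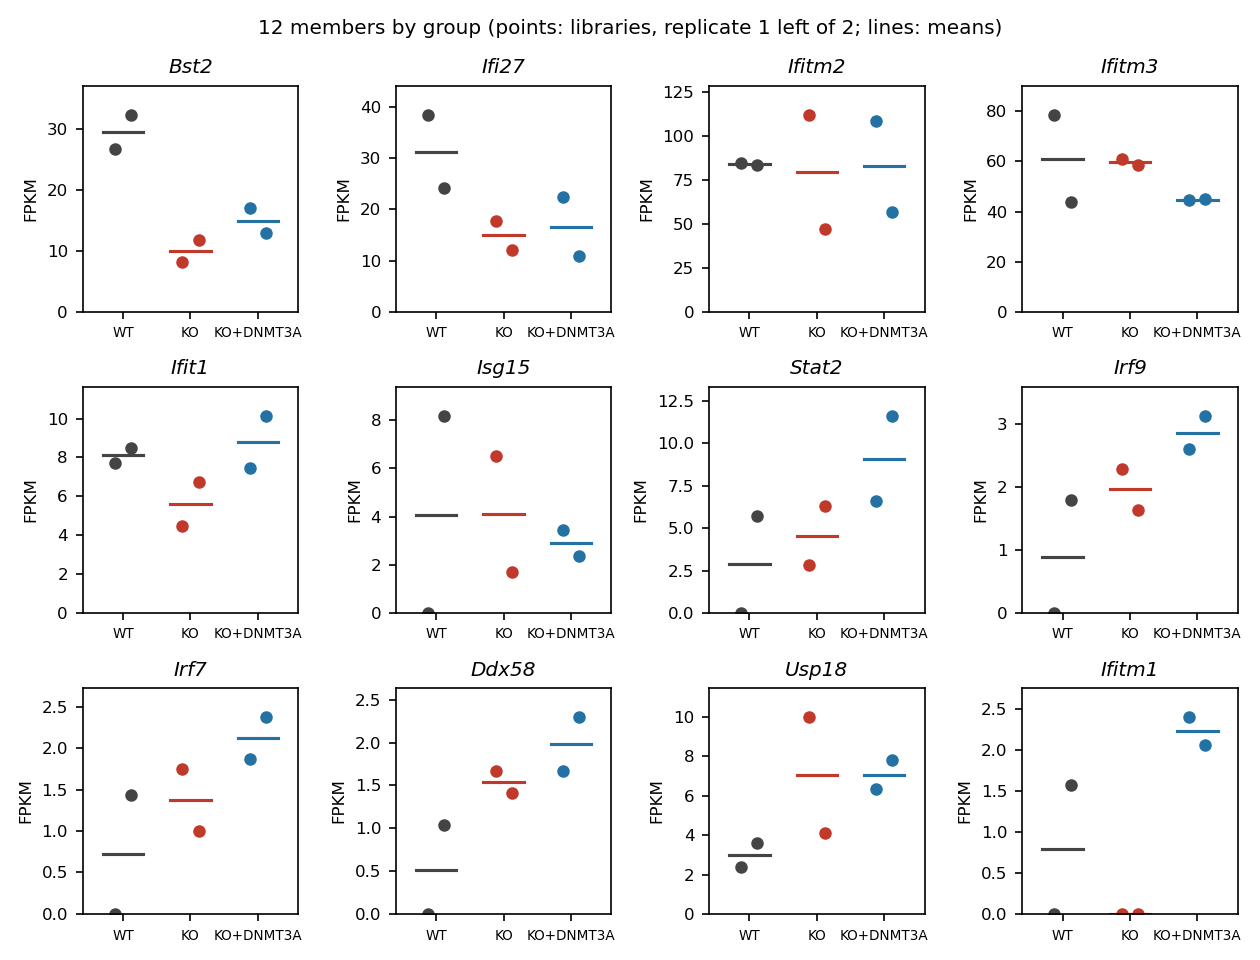
FPKM of 12 members in the 6 libraries, 1 panel per gene with its own axis from 0; points are libraries and lines are group means. Bst2 separates all 3 groups and Stat2 and Irf9 are highest in both KO+DNMT3A libraries on the deposited scale (KO and KO+DNMT3A overlap for all 3 after median scaling), and Ifitm2 and Isg15 overlap.

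The first comparison, KO against WT, asks what the loss of Raptor in beta cells does to the islet transcriptome. Of the 26 tested members, 16 had a higher mean in KO (61.5%, against 52.4% of all 13233 genes tested), and their median log2 fold change was 0.10, against 0.03 for all genes. The sign of the members' median turned when 1 library was left out, to -0.23 without WT replicate 1 and to -0.16 without KO replicate 1, and it was 0.25 without WT replicate 2 and 0.37 without KO replicate 2. The lowest fold change was that of the surface protein Bst2. It averaged 29.5 ± 3.90 FPKM in WT (SD, n = 2) against 8.26 and 11.7 in the KO libraries, a log2 fold change of -1.48 (SE 0.54, adjusted p = 1 by limma). For Ifi27 the log2 fold change was -1.005 (SE 0.61).

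On the other side, Usp18 had a log2 fold change of 0.93 (SE 0.58), Ddx58 0.83 (SE 0.57) and Gbp2 0.88 (SE 0.64). Ifi27 and these 3 genes each had an adjusted p of 1 by limma. No gene of the table passed an adjusted p of 0.05 in this comparison (0% called by limma, with 240 of 13233 genes and 1 member at an unadjusted p under 0.05). Groups without overlap were found for 2 members higher in KO (Ddx58 and Usp18), 7.69% of the tested members against a background of 9.36%, and for 6 lower (Bst2, Eif2ak2, Ifi27, Ifit1, Oasl2 and Rtp4), 23.1% against 10.5%. This imbalance depended on the scaling between libraries: 5 members were higher and 5 lower after median scaling, against 11.8% and 10.1% of all genes, and likewise after quantile normalization, against 10.5% and 11.2%. In composition rescaling, library totals were set equal with Ins1, Ins2, Iapp and mitochondrially encoded genes left out. After it, 1 member was higher and 4 were lower, against 7.49% and 8.94% of all genes. Without both insulin-poor libraries, which leaves 1 library a group, the log2 fold change of Bst2 was -1.84 and that of Ifi27 -0.41. Leaving out WT replicate 1 alone, the shallowest library, brought Ddx58 to 0.32 and Gbp2 to 0.35, and leaving out KO replicate 1 brought Usp18 to 0.37.

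Other cells than beta cells also express these genes. Macrophage markers, of which 15 of 18 were tested, summed to 684 and 556 FPKM in WT, 575 and 364 in KO, and 295 and 183 in KO+DNMT3A. Against WT, 4 of the 15 were lower without overlap in KO (10.5% of all genes were) and 12 of the 15 in KO+DNMT3A (7.87% of all genes), with a median log2 fold change of -0.22 and -1.20. All 18 macrophage markers were above 0 in some library. Endothelial markers summed to 80.1 and 28.3 FPKM in WT, 60.4 and 33.9 in KO, and 38.2 and 26.9 in KO+DNMT3A. Stromal markers summed to 1184 and 314, 418 and 454, and 429 and 206 in the same order, and duct markers to 2916 and 469, 604 and 355, and 1710 and 437, so both lists were highest in WT replicate 1. Their median log2 fold changes in KO against WT were -0.91 over 12 stromal and -0.999 over 11 duct markers. Without overlap, 2 stromal markers were higher and 2 lower, and 1 duct marker was higher and 4 lower. The shares of all genes were 9.36% and 10.5%. In KO+DNMT3A against WT, 11 of the 12 stromal markers had a lower mean, whereas 64.8% of all genes had a higher one. Of 12 lymphocyte markers, 11 were at 0 in every library. Of 7 markers of plasmacytoid dendritic cells (the professional makers of type I interferon) and granulocytes, Siglech, Flt3, Elane and Ly6g were at 0 throughout and Ccr9 reached at most 0.168 FPKM, while S100a8 and S100a9 read 4.55 and 13.5 in KO+DNMT3A replicate 2 and at most 2.09 elsewhere. The part of these cells in the levels of Bst2, Ifi27 and the other members was not tested.

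The second comparison, KO+DNMT3A against KO, sets knockout islets given Dnmt3a by lentivirus beside those labelled KO alone. Most members had a higher mean in KO+DNMT3A, 20 of 26 (76.9%), but so did 68.2% of all genes tested. The members' median log2 fold change was 0.25 against 0.19 for all genes; it was 0.06 without KO replicate 2 and 0.54 without KO replicate 1. Ifitm1 was listed at 0 in both KO libraries and averaged 2.23 ± 0.238 FPKM in KO+DNMT3A (SD, n = 2; adjusted p = 1 by limma). No fold is given for it, because 3 fragments would have been worth 2.39 FPKM in KO replicate 1 and 4.36 in KO replicate 2, so the difference was not detectable at this depth.

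Ifit1 had a log2 fold change of 0.57 (SE 0.52), Rtp4 0.80 (SE 0.73), Bst2 0.54 (SE 0.54) and Stat2 0.89 (SE 0.90), each with an adjusted p of 1 by limma. Without KO replicate 1 the values of Ifit1, Bst2 and Stat2 were 0.32, 0.31 and 0.43. Rtp4 rested on KO+DNMT3A replicate 1, where it read 7.28 FPKM against 1.14 in replicate 2, and its log2 fold change without that library was -0.18. Again 0% of genes were called at an adjusted p of 0.05, with 147 genes and 1 member at an unadjusted p under 0.05. Without overlap, 7 members were higher in KO+DNMT3A (Bst2, Eif2ak2, Ifit1, Ifitm1, Irf7, Irf9 and Stat2), 26.9% of the tested members against a background of 17.2%. Ifitm1 would not have passed the filter on low values without its KO+DNMT3A libraries, so the filter favoured its place here. Another 2 were lower (Ifitm3 and Rsad2), 7.69% against 5.43%. The higher side depended on the scaling between libraries: when each library was set to the same median, only Ifitm1 was higher without overlap, against 9.91% of all genes, and the same 2 members were lower against 10.7%. With that scaling the members' median was 0.05 and that of all genes -0.01. After composition rescaling, 6 were higher without overlap (all but Irf7), against 16.1% of all genes, and 2 lower, against 4.78%.

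Beside these values, 11 of 11 tested duct markers and 10 of 10 beta cell markers had a higher mean in KO+DNMT3A than in KO. A higher mean was found for 68.2% of all genes. Without overlap, 1 duct marker and 1 beta cell marker were higher, against 17.2% of all genes. Of 15 macrophage markers, 14 had a lower mean. Of the same 15, 10 were lower without overlap, against 5.43% of all genes. Beta cell markers summed to 218236 and 1684 FPKM in KO and to 124621 and 152260 in KO+DNMT3A, and duct markers to 604 and 355 against 1710 and 437. Their part in the members' differences was not tested.

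**Figure D4:**
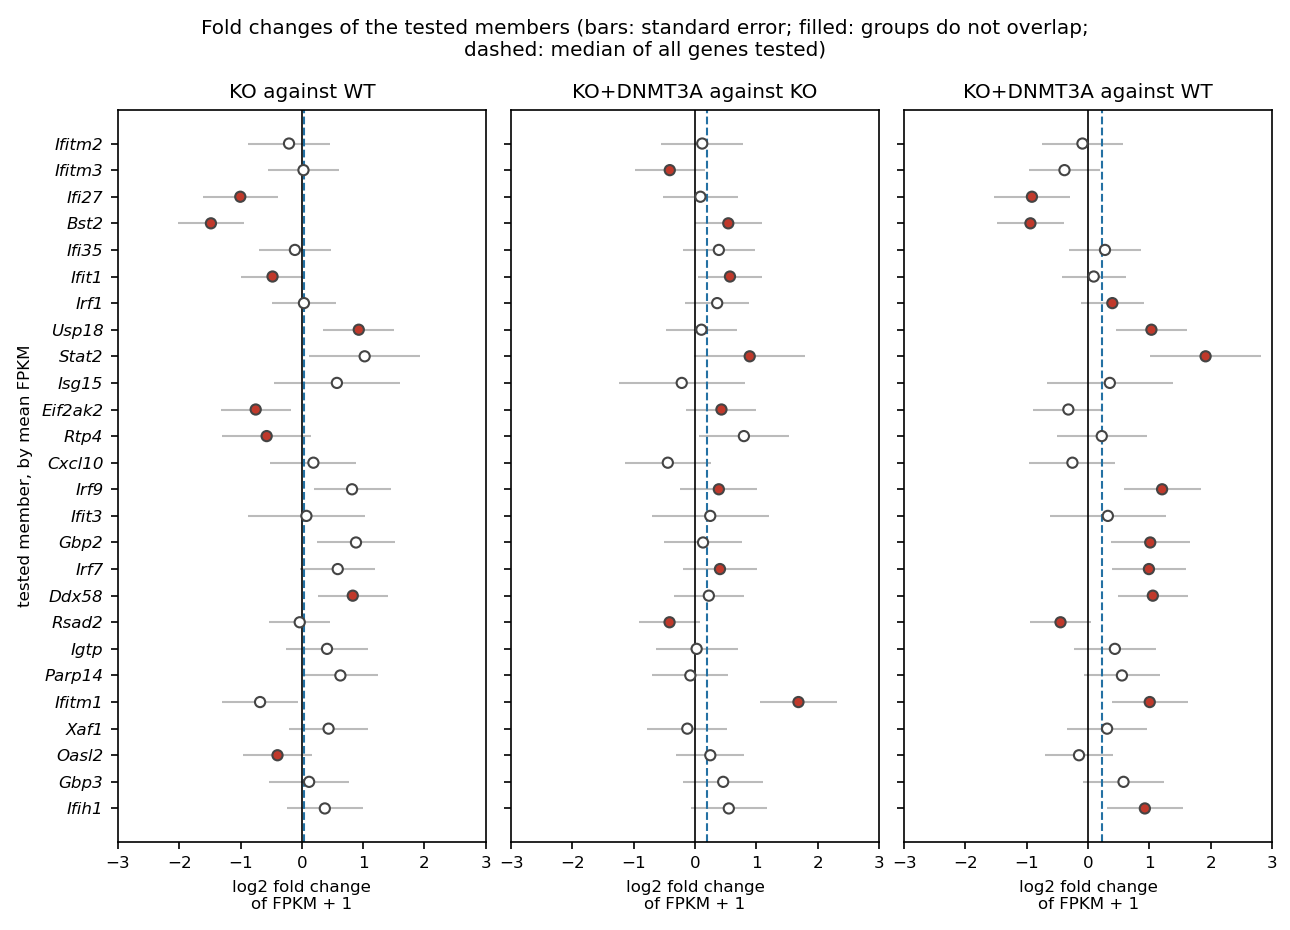
Log2 fold change of FPKM + 1 with its standard error for the 26 tested members in the 3 comparisons; filled points mark groups without overlap and the dashed line the median of all genes tested. Most bars cross 0, Bst2 is the lowest point of the KO against WT panel, and Ifitm1, which was listed at 0 in both KO libraries, is the highest of the KO+DNMT3A against KO panel.

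The third comparison, KO+DNMT3A against WT, asks how near the treated islets came to wild type; it shares its libraries with both others. Here the ISGF3 subunits Stat2 and Irf9 led. Stat2 averaged 2.86 ± 4.05 FPKM in WT (SD, n = 2) and 9.10 ± 3.51 in KO+DNMT3A (SD, n = 2), a log2 fold change of 1.92 (SE 0.90, adjusted p = 0.997 by limma). It was 0.54 without WT replicate 1, where Stat2 was listed at 0, and 3.29 without WT replicate 2. Irf9 had a log2 fold change of 1.21 (SE 0.63, adjusted p = 0.997 by limma), which was 0.47 without WT replicate 1.

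Ddx58 had a log2 fold change of 1.06 (SE 0.57), Usp18 1.03 (SE 0.58) and Bst2 -0.94 (SE 0.54), each with an adjusted p of 0.997 by limma; Ddx58 stood at 0.54 without WT replicate 1. No gene was called (0% of 13233), with 379 genes and 0 members at an unadjusted p under 0.05. By mean, 18 of 26 members were higher (69.2%, against 64.8% of all genes), with a median log2 fold change of 0.34 against 0.23. Leaving out WT replicate 1 brought the members' median to 0.10, and leaving out WT replicate 2 brought it to 0.62. Without overlap, 9 members were higher (Ddx58, Gbp2, Ifih1, Ifitm1, Irf1, Irf7, Irf9, Stat2 and Usp18), 34.6% against a background of 19.2%, and 3 were lower (Bst2, Ifi27 and Rsad2), 11.5% against 7.87%. Of the 9 higher members, 7 were listed at 0 in WT replicate 1. Irf1 and Usp18 were not, but held 2.59 and 1.03 inferred fragments there. Ifitm1 and Ifih1 reached 1 FPKM in only 1 library outside KO+DNMT3A, so the filter favoured their place among them. After median scaling the same 9 were higher, against 14.6% of all genes. Over all 34 members without the filter, the median log2 fold change in the 3 comparisons, in the order given, was 0.05, 0.27 and 0.29, against 0.01, 0.15 and 0.19 for all genes above 0 in at least 1 library.

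Members with the ISRE core in their window were set beside those without it. In KO+DNMT3A against KO, the 15 tested members with a match had a median log2 fold change of 0.23 and the 7 tested members with a window but no match 0.39. In KO+DNMT3A against WT the medians were 0.32 and 0.40, and in KO against WT 0.12 and 0.03. The difference between these medians was not tested.

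The remaining genes of the pathway were read from lists of receptors, signalling proteins, sensors and further interferon-stimulated genes. None of their tested genes passed the adjusted threshold in any comparison. Of the signalling list, with 14 of 14 tested, 3 were higher and 1 lower without overlap in KO against WT, 3 and 2 in KO+DNMT3A against KO, and 5 and 0 in KO+DNMT3A against WT. Over all genes the shares higher and lower were 9.36% and 10.5%, 17.2% and 5.43%, and 19.2% and 7.87% in the same order. Irf5, an interferon regulatory factor of myeloid cells, read 0 and 0.868 FPKM in WT, 2.17 and 3.61 in KO, and 1.03 and 0.504 in KO+DNMT3A. It would not have passed the filter without the KO libraries, in which it was highest, so no fold change is given. The counts above include it, as higher in KO against WT and as lower in KO+DNMT3A against KO. Socs3, a feedback inhibitor of cytokine receptors, read 6.21 and 8.12 in WT, 16.2 and 4.68 in KO, and 21.1 and 20.1 in KO+DNMT3A. Against WT the latter gave a log2 fold change of 1.41 (SE 0.65, adjusted p = 0.997 by limma). Socs1, another such inhibitor, was spread too widely within WT to compare, at 23.4 and 0.842 FPKM.

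Of the sensors and adaptors, 10 were tested. In KO against WT, 8 had a lower mean (median -0.48, against 0.03 for all genes, of which 52.4% had a higher mean). In KO+DNMT3A against KO, 9 had a higher mean (median 0.59, against 0.19 for all genes, of which 68.2% had a higher mean). Without overlap, 0 were higher and 3 lower in the first comparison, against 9.36% and 10.5% of all genes. In the second, 1 was higher and 0 lower, against 17.2% and 5.43%. The 16 genes found of this list summed to 26.8 and 44.9 FPKM in WT, 42.2 and 15.1 in KO, and 51.2 and 43.9 in KO+DNMT3A. That sum was lowest in the insulin-poor KO replicate 2, and how far both medians rest on that library was not tested. Adar, which edits double-stranded RNA and keeps a cell's own RNA from triggering Ifih1, read 2.89 and 3.42 FPKM in WT, 1.06 and 1.16 in KO, and 3.57 and 8.13 in KO+DNMT3A. Adar had a log2 fold change of -0.97 in KO against WT (SE 0.56) and of 1.61 in KO+DNMT3A against KO (SE 0.56), with an adjusted p of 1 by limma in both. These comparisons share the KO libraries, so low KO values give opposite signs in them. Tmem173 (STING, the adaptor for cytosolic DNA sensing) read 5.33 and 3.12 in WT, 2.44 and 0 in KO, and 2.71 and 1.17 in KO+DNMT3A.

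The second list of interferon-stimulated genes had 26 of its 42 genes tested. Without overlap, 4 were higher and 2 lower in KO against WT, 5 and 0 in KO+DNMT3A against KO, and 7 and 0 in KO+DNMT3A against WT, with medians of 0.33, 0.18 and 0.61 against 0.03, 0.19 and 0.23 for all genes. In the second comparison both the count, 5 of 26 against 17.2% of all genes, and the median were near those of all genes. Irgm1, an immunity-related GTPase, read 0 and 2.39 FPKM in WT, 2.40 and 1.05 in KO, and 5.35 and 3.31 in KO+DNMT3A, where it was highest (log2 fold change 1.51 against WT, SE 0.71, adjusted p = 0.997 by limma). The 0 in WT replicate 1, the shallowest library, enters this fold change. How far it and the list's median of 0.61 rest on that library was not tested. Cxcl9, a chemokine driven by interferon gamma, read 0 and 0.945 in WT, 0.430 and 0 in KO, and 1.44 and 1.65 in KO+DNMT3A. It would not have passed the filter without its KO+DNMT3A libraries, so the filter favoured its place among the genes higher without overlap. Cmpk2, a nucleotide kinase encoded beside Rsad2, read 0 and 6.74 in WT, 13.6 and 4.81 in KO, and 11.4 and 6.99 in KO+DNMT3A, whereas Rsad2 itself was lowest in KO+DNMT3A. Iigp1, a further GTPase of that family, read 0 in WT replicates 1 and 2, and 0.821 to 1.35 in the other 4 libraries. Iigp1, Herc6 and Trim21 reached 1 FPKM in no WT library. The filter thus favoured their place among the genes of this list higher without overlap in KO against WT. It also favoured that of Iigp1 in KO+DNMT3A against WT.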

How the data were processed

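RNA of 6 islet libraries, 2 per group, was sequenced after poly-A selection with a TruSeq kit, per the labels' protocols. The authors deposited FPKM per gene. HISAT2 2.0.4, StringTie 1.3.0, edgeR and mm10 are named, per the submitters' processing notes; their roles, and whether strand was used, are not given in the sources used here. Reads and counts were not analysed here. Symbols, positions and exon overlaps came from GENCODE M21 by gene identifier (478 of 34745 genes had no symbol), and promoter windows from RefSeq GRCm38.p6.

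No source gives the depth. Genes with 1 annotated transcript were used to infer it, since their FPKM rise in steps of 1 fragment: 84.5% to 91.8% of values up to 20 fragments lay on a step within 0.01. Fragment numbers cover counting error only.

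Values were taken as log2(FPKM + 1), which understates the folds of low genes, and 1 limma 3.58.1 fit (R 4.3.3; trended, robust empirical Bayes) held all 6 libraries and the 13233 genes with at least 1 FPKM in 2 or more. The two-sided tests were adjusted by Benjamini and Hochberg's method over all genes of each of the 3 comparisons, with a threshold of 0.05. The script was tested on simulated data with less spread between replicates than the tested members had. That test does not measure the power of these comparisons. A member was called without overlap when every library of 1 group exceeded every library of the other.

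The members and lists were chosen with earlier results of these data known, and no list carries a p of its own. All members are accounted for; fits are given for the 5 members with the smallest unadjusted p per comparison and for up to 2 genes of each further list, and other genes appear as checks or neighbours, Ifit3b and Ifnlr1 among them, chosen after their values were seen. Alternatives covered the pseudocount, the filter, the scaling, insulin and mitochondrial composition, the empirical Bayes step, the groups in the fit, a replicate block and libraries left out.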

Additional observations from a re-analysis of the deposited data

How the results depend on the processing

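With 2 libraries a group, precision was set by depth and by the spread within groups. Members below about 2 FPKM rest on few fragments, and in WT replicate 1 so do higher ones. There Bst2 at 26.7 FPKM was 5.18 inferred fragments, Ifi27 at 38.3 FPKM was 9.17 and Usp18 at 2.37 FPKM was 1.03. No gene or member was called in any of the 102 alternatives on the counts of calls, and the smallest adjusted p of a named member in any alternative was 0.131. Of 234 alternative values for the 15 named fold changes, 233 kept their sign. The fold change of Rtp4 in KO+DNMT3A against KO ranged from -0.18 to 1.77 with 1 library left out. Much of this agreement was fixed in advance. The filter, the empirical Bayes step, the groups in the fit and the replicate block cannot change a fold. Nor can leaving out a library of the group not compared. Only the filter among these can move the members' median. The members' median log2 fold change moved by less than 0.342 in 46 of 48 alternatives. That value is the pooled SD between replicates of the members' median log2 level. It exceeds the main median of every comparison, so losing that median whole would have counted as no move. With 1 library left out, the median fold change ranged from -0.23 to 0.37 in KO against WT. It ranged from 0.06 to 0.54 in KO+DNMT3A against KO and from 0.10 to 0.62 in KO+DNMT3A against WT. With all libraries, it was 1.27 in KO+DNMT3A against WT with a pseudocount of 0.1 and -0.023 after quantile normalization.

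Counts without overlap moved more. In KO against WT, members higher in KO numbered 5 after quantile normalization and after median scaling, 1 after composition rescaling and 1 with a filter of 5 FPKM, where 3 were lower. In KO+DNMT3A against KO, 1 was higher after quantile normalization or median scaling, and 6 after composition rescaling. With a filter of 5 FPKM, 3 were higher and 1 lower. In KO+DNMT3A against WT, 3 were higher with that filter. Without both insulin-poor libraries, 15 were higher and 11 lower in KO against WT, 8 were lower in KO+DNMT3A against KO, and 6 were lower in KO+DNMT3A against WT. Such counts rise by construction when a group holds 1 library. Leaving out 1 library at a time gave 2 to 13 higher and 6 to 10 lower in KO against WT, 7 to 21 and 2 to 8 in KO+DNMT3A against KO, and 9 to 15 and 3 to 6 in KO+DNMT3A against WT. The cause of the other shifts was not tested.

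Replicate numbers are those of the sample titles. The numbers in the deposited column names differ from them and are shared by WT replicate 1, KO replicate 2 and KO+DNMT3A replicate 2; what they stand for is not stated. By title, same-numbered libraries were not shown to be paired: the correlation of the differences between replicates 1 and 2 over 13233 genes was -0.27 for WT and KO, 0.32 for KO and KO+DNMT3A, and 0.10 for WT and KO+DNMT3A. A fit with the replicate block called 0 genes and 0 members in each comparison. By the shared column number, the correlations for WT and KO and for WT and KO+DNMT3A have the opposite sign. A crossed block with the KO numbers exchanged, added after seeing the data, also called 0. That block joined WT replicate 1, KO replicate 2 and KO+DNMT3A replicate 1. A block by the shared column number was therefore not fitted.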
